A study of Mus musculus with 24 samples.

Results

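The variable (V) segments of the immunoglobulin light chains were followed here through B cells sorted from mouse melanomas and from the lymph nodes that drain them. The members are the 85 genes of the count table whose symbol begins with Igkv or Iglv and whose counts summed to at least 100 over all 24 libraries. They comprise 82 kappa (Igkv) and 3 lambda (Iglv) segments of the 163 such genes listed, of which 34 had 0 counts and 44 had 1 to 99. The nearest members above the limit were Igkv5-45 with 107 counts and Igkv1-122 and Igkv4-81 with 111 each, and the nearest genes below it were Igkv9-129 with 94, Igkv3-3 with 87 and Igkv1-132 with 84. A segment used by a single group could reach the limit through that group alone, so the counts of members that differ are descriptions and not evidence about segments in general.

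B cells and regulatory T cells (Tregs) were sorted from tumours of B16-F0, a mouse melanoma cell line, or from draining lymph nodes. All the mice carried Foxp3-Cre, a recombinase driven by the Treg gene Foxp3. Those called WT carried Foxp3-Cre alone, and those called KO were Foxp3-Cre Appl2 f/f, in which Cre is meant to delete Appl2, the gene of an endosomal adaptor protein, in cells that express Foxp3. B cells are thus not the cell type that the deletion is aimed at. Each of the 4 B cell groups (lymph node WT, lymph node KO, tumour WT and tumour KO) held 3 libraries, and the 12 Treg libraries serve only as a comparison at the end. The labels give no strain, age or sex, and leave it unstated if each library is 1 animal, a pool of animals or a repeat of 1 sample, so the tests measure only the spread between these libraries.

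A light chain V segment becomes part of a working gene when a developing B cell joins it to a joining (J) segment of the same locus, and most B cells then express a single light chain. In mice the kappa locus is used far more often than the lambda locus, whose V segments are few. The mix of V segments in B cell RNA therefore reflects which cells were present, and also how much immunoglobulin RNA each held, which is much higher in plasma cells, the antibody-secreting form. In bulk RNA more cells with a segment and more RNA per cell cannot be told apart.

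The coding end of a segment, where it meets the J segment, is shown for 7 segments that led a library or set 1 group apart. The last 75 coding bases of each are given as a reference for what was counted, read 5′ to 3′ from the GENCODE M21 coding sequences, which were matched to 84 of the 85 members by symbol. Capitals run from the codon of the last in-frame cysteine, where the third antigen-contact loop begins, to the end of the coding sequence.
Iglv3: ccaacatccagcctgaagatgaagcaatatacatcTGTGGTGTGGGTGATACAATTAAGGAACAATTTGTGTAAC
Igkv10-96: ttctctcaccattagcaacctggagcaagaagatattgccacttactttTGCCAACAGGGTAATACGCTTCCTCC
Igkv19-93: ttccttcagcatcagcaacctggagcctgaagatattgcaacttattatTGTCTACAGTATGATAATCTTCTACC
Igkv14-111: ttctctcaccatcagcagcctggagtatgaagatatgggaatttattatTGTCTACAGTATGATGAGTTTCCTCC
Igkv14-126: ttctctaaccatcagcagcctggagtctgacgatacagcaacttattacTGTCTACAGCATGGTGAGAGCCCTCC
Igkv1-110: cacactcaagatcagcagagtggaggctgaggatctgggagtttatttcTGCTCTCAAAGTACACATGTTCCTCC
Igkv1-88: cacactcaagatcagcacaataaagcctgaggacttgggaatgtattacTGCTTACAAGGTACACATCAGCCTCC
Reads can be shared between near-identical segments. Relatives were sought within the same locus only, kappa with kappa and lambda with lambda. Of the 85 members, 40 had another such segment at 95% identity or more over the coding sequence. The nearest relative of a member lay at 62.4 to 98.6% (median 94.6%). Igkv1-110 and Igkv1-117 differed at 10 of 359 aligned bases, Igkv14-111 and Igkv14-126 at 30 of 353, and Iglv1 and Iglv2 at 11 of 351. The last 150 coding bases of these 3 pairs are shown because the members of each pair behaved differently, with capitals at the bases that differ within the pair.
Igkv1-110: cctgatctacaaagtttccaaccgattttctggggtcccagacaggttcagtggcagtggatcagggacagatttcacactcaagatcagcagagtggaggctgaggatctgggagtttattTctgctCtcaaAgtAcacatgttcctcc
Igkv1-117: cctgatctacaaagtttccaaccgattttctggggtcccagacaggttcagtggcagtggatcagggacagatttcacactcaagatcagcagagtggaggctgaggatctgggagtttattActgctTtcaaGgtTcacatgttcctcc
Igkv14-111: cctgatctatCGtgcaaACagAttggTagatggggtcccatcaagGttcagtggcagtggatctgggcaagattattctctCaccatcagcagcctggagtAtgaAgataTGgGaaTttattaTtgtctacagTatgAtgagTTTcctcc
Igkv14-126: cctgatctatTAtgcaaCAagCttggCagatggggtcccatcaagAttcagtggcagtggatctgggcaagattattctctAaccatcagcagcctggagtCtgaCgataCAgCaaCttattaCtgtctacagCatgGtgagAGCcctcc
Iglv1: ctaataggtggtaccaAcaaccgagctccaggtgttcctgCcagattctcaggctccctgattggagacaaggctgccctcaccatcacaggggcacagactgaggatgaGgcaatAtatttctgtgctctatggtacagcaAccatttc
Iglv2: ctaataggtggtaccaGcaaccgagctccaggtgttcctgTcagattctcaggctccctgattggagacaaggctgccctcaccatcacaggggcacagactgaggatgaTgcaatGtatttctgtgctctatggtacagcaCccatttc
How the counting treated reads that match several segments is not given in the sources used here, so values of Igkv1-110, Igkv1-117, Iglv1, Iglv2, Igkv10-96, Igkv4-55 and the other close relatives are uncertain to that extent. Igkv19-93 (80.2% to its nearest relative), Iglv3 (62.4%) and Igkv1-88 (85.5%) stood further from any other segment of their own locus. Iglv3 also overlaps an annotated gene, Gm56600, and Igkv2-137 overlaps Gm42889.

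Totals ran from 6245822 to 12727115 counts per B cell library, of which 6180 to 21711 fell on the 85 members. The B cell markers Ms4a1, Cd79a and Pax5 were present in all 4 groups, with group means of 275.7 to 514 for Ms4a1, 168 to 216.4 for Cd79a and 1278 to 1761 for Pax5 in CPM (counts scaled to library size, with TMM factors over all 24 libraries). Markers of other cells differed between the groups. The 7 T cell markers summed to 34.5 to 40.3 CPM in lymph node WT, 8.12 to 10.5 in lymph node KO, 8.28 to 15 in tumour WT and 96.1 to 112.2 in tumour KO. The 5 melanoma markers summed to 678 to 809.9 CPM in tumour WT, most of it Dct, against 34.4 to 39.5 in tumour KO and at most 19.1 in the lymph nodes, where Mlana was at 0 in WT and Tyrp1, Mlana and Tyr in KO. The 5 macrophage and monocyte markers summed to 209 to 226.2 CPM in tumour WT, 70.8 to 84.3 in tumour KO and 25.0 to 48.3 in the lymph nodes. The part of these cells in the results below was not tested. Appl2 itself stood at 24.1 ± 2.65 CPM in lymph node WT, 11.3 ± 0.425 in lymph node KO, 44.8 ± 6.13 in tumour WT and 15.5 ± 3.05 in tumour KO B cells (SD, n = 3). It was lower in KO by -1.09 ± 0.13 on the log2 scale in the lymph node (edgeR adjusted p = 2.24e-07) and by -1.53 ± 0.16 in the tumour (5.83e-06), although B cells are not the targeted type. In Tregs, the targeted type, Appl2 stood at 22.2 ± 3.80 CPM in lymph node WT and 26.2 ± 3.02 in lymph node KO. In tumour Tregs it stood at 53.7 ± 4.25 in WT and 24.6 ± 3.16 in KO (SD, n = 3). These Treg differences were not tested here.

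Light V RNA was several times higher in tumour than in lymph node B cells. Summed over the members it reached 589.5, 550.4 and 550.8 CPM in the 3 lymph node WT libraries and 621.9, 619.0 and 593.2 in lymph node KO. It reached 2298, 1746 and 2173 CPM in tumour WT and 1442, 1500 and 1449 in tumour KO. The tumour libraries all lay above the lymph node libraries, the WT tumour libraries above those labelled KO, and the KO lymph node libraries above those labelled WT by a narrow margin. As a percent of total counts, without TMM, the lymph node groups overlapped (up to 0.0582% in WT and from 0.0569% in KO). In the edgeR quasi-likelihood test with Benjamini-Hochberg adjustment over all genes, 67 of 84 tested members were higher in tumour than in lymph node B cells of WT mice, against 15.7% of all genes, and 0 were lower, against 14.3%. At an unadjusted p under 0.05 edgeR gave 1 lower member and DESeq2 0, and without a filter on low counts 1 member, Igkv4-70, was lower after adjustment. Between KO groups 60 of 80 tested members were higher in the tumour, against 17.5% of all genes, and 2, Igkv1-88 and Iglv3, were lower, against 13.4%. Without lymph node KO replicate 2 the call of Iglv3 was lost (adjusted p = 0.0598) and 1 remained. The median log2 difference of the tested members was 1.83 in WT and 1.45 in KO, where the medians over all genes were 0.01 and -0.02.

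The kappa constant gene and the J chain were also higher in the tumour. Igkc, the kappa constant gene, stood at 666.9 ± 19.4 CPM in lymph node WT, 630.2 ± 15.7 in lymph node KO, 2148 ± 298.8 in tumour WT and 1608 ± 31.4 in tumour KO. Its log2 difference of tumour from lymph node was 1.75 ± 0.07 in WT (edgeR adjusted p = 5.34e-13) and 1.39 ± 0.05 in KO (5.01e-10), and in the lymph node its difference of KO from WT was -0.081 ± 0.043 (0.196). Jchain, whose product links secreted IgM and IgA into polymers and which marks antibody-secreting cells, stood at 58.4 ± 4.38, 68.8 ± 2.16, 756.1 ± 128.2 and 318.5 ± 40.8 CPM in the same order (SD, n = 3). Its log2 difference of tumour from lymph node was 3.76 ± 0.10 in WT (edgeR adjusted p = 7.89e-16) and 2.25 ± 0.09 in KO (1.31e-09), and within the tumour it was lower in KO by -1.25 ± 0.11 (8.57e-07). Of 9 tested plasma cell genes 8 were higher and 1 lower in WT tumour than lymph node, against 15.7 and 14.3% of all genes. In KO 9 of 9 were higher, against 17.5%. Between the tumour groups the list was split, with 2 of 9 higher and 2 lower in KO, against 21.3 and 18.8% of all genes. All 10 plasma cell genes summed to 1040 to 1286 CPM in tumour WT and 1116 to 1268 in tumour KO, so Jchain does not stand for the list there. The members' rise in the tumour thus came in the same libraries as higher plasma cell genes, and the part of plasma cells in it was not tested.

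**Figure D1:**
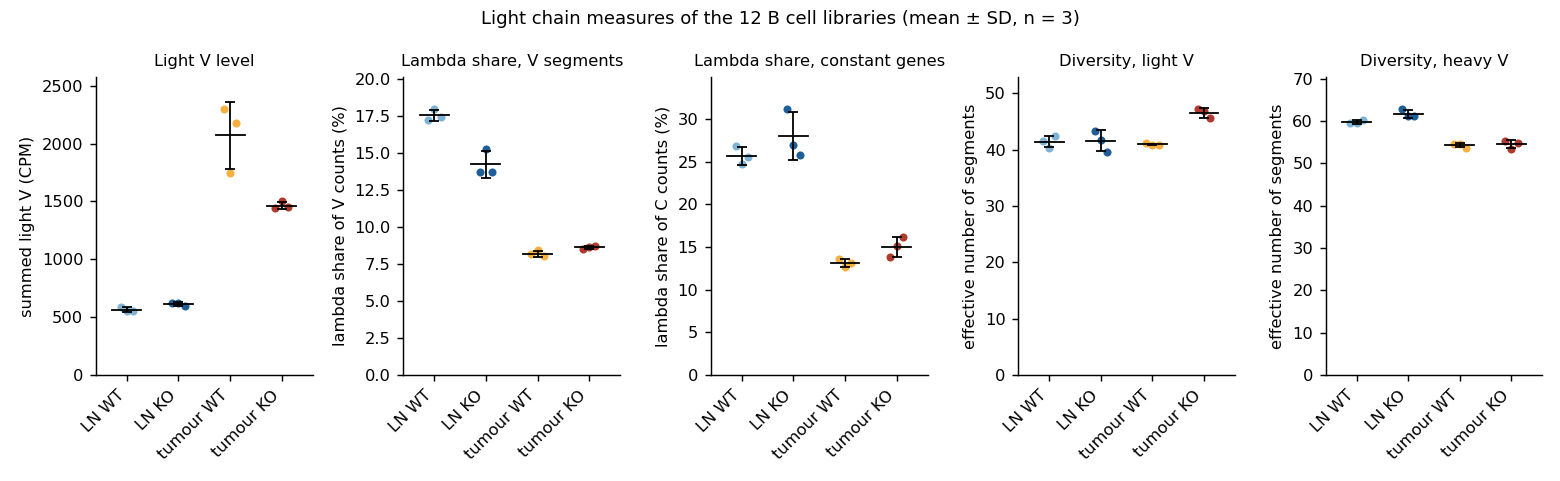
Dots are the 3 B cell libraries of each group and bars the mean ± SD, for the summed level of the 85 light V segments (CPM), the lambda share of V and of constant gene counts (%), and the effective number of light and of heavy V segments. The tumour groups lie above the lymph node groups in level and below them in lambda share, and tumour KO lies above the other groups in light V diversity, at 45.6 to 47.2 segments.

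Because the total differed so much between tissues, usage was described as each segment's share of all member counts in its library. Changes of share were tested in the same edgeR model with the library size set to the light V total. This moves the median of all genes, for example by -1.93 in the WT tissue comparison, so the share of all genes called on that scale is set mostly by the scaling. A leading share rested on enough counts that its 95% exact binomial interval was at most 0.807 percentage points to either side, counting error only. Between 69.7 and 75.4% of the counts from 1 to 10 in B cell libraries were even numbers, so a count is not always an independent fragment and these intervals are too narrow.

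The balance between kappa and lambda shifted with the tissue. Lambda segments made up 17.2, 17.9 and 17.4% of light V counts in lymph node WT and 13.7, 15.2 and 13.7% in lymph node KO. In the tumour they made up 8.14, 8.39 and 8.0% in WT and 8.49, 8.63 and 8.67% in KO. The 6 tumour libraries all lay below the 6 lymph node libraries, the lymph node groups did not overlap, and the tumour groups lay close together without overlapping. The constant genes gave a similar order between tissues. Between genotypes they gave the same order in the tumour, with KO above WT, but not in the lymph node. Iglc1, Iglc2 and Iglc3 together took 24.8 to 26.9% of light chain constant counts in lymph node WT, 25.8 to 31.2% in lymph node KO, 12.6 to 13.6% in tumour WT and 13.8 to 16.2% in tumour KO. By this measure lymph node KO was not lower than WT, and the WT and KO ranges overlapped in the lymph node.

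Most of the shift between tissues lay in Iglv3, the lambda segment least like the others. It took 10.8, 12.4 and 11.3% of light V counts in lymph node WT, 9.22, 10.6 and 10.3% in lymph node KO, 3.67, 4.4 and 3.74% in tumour WT and 3.17, 3.33 and 3.09% in tumour KO. No tumour library overlapped a lymph node library. Its share fell by 1.55 ± 0.13 on the log2 scale from lymph node to tumour in WT (edgeR adjusted p = 4.18e-11) and by 1.65 ± 0.09 in KO (1.52e-09), although its level on the TMM scale was higher by 0.39 ± 0.07 in WT tumours (0.000462) and lower by -0.35 ± 0.09 in KO tumours (0.0105, a call that was lost without lymph node KO replicate 2, as above). Of the 3 lambda segments it had the smallest difference in level between tissues in both genotypes.

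Iglv1 did not follow Iglv3. Its shares were 5.89, 5.29 and 5.55% in lymph node WT, 3.42, 3.77 and 2.97% in lymph node KO, 4.27, 3.84 and 4.02% in tumour WT and 4.83, 4.64 and 4.84% in tumour KO. In the lymph node it was lower in KO than in WT with no overlap, by -0.60 ± 0.12 in level (edgeR adjusted p = 0.000249) and -0.72 ± 0.12 in share (5.01e-06). From lymph node to tumour its share fell by 0.46 ± 0.13 in WT (0.00237) and rose by 0.49 ± 0.11 in KO (0.000866), while its level was higher in the tumour in both. Iglv2, the near twin of Iglv1, never passed 1.03% of light V counts in a B cell library. Within the tumour Iglv2 was higher in KO, at 0.490, 0.651 and 0.741% against 0.207, 0.158 and 0.239% in WT (log2 share difference 1.61 ± 0.29, adjusted p = 8.24e-05). As a result Iglv3 made up 62.5 to 69.0% of lambda V counts in lymph node WT, 67.5 to 74.9% in lymph node KO, 45.1 to 52.4% in tumour WT and 35.6 to 38.6% in tumour KO. The levels of Iglc2, the constant gene joined mainly to Iglv2 and Iglv3, and of its near copy Iglc3, with which it can share reads, had log2 tissue differences of 0.46 ± 0.09 and 0.12 ± 0.10 in WT (adjusted p = 0.000616 and 0.398), against 1.40 ± 0.10 for Iglc1 (6.89e-09).

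Usage was broad in every group, and broadest in tumour KO. The effective number of segments, the exponential of the Shannon entropy of the shares, is the number of equally used segments that would give the same evenness. It was 41.6, 40.3 and 42.4 in lymph node WT, 43.3, 41.8 and 39.6 in lymph node KO, 41.1, 40.8 and 40.9 in tumour WT and 47.2, 46.9 and 45.6 in tumour KO. The 3 tumour KO libraries lay above the other 9, which overlapped. With every library thinned to 6180 light V counts the tumour KO mean was 46.1 ± 1.20 and the others were 40.9 to 41.4. It took 9 or 10 segments to reach 50% of counts in the other groups and 12 or 13 in tumour KO. The heavy chain V segments, 101 chosen by the same count limit, were ordered otherwise, with effective numbers of 59.8 ± 0.443 in lymph node WT, 61.8 ± 0.939 in lymph node KO, 54.3 ± 0.494 in tumour WT and 54.5 ± 0.977 in tumour KO (SD, n = 3).

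The segment with the largest share changed between groups and in part between replicates. Iglv3 led all 3 lymph node WT libraries and lymph node KO replicates 1 and 2, and Igkv1-88 led lymph node KO replicate 3. Igkv10-96, Igkv14-111 and Igkv1-110 led 1 tumour WT library each, and their shares in that group lay between 7.55 and 9.0%. Igkv10-96 led tumour KO replicate 1 and Igkv19-93 the other 2. The largest share of any segment in a B cell library was 12.4%, of Iglv3. By mean share over the 12 libraries the order was Igkv10-96 (7.21%), Igkv19-93 (7.18%), Iglv3 (7.16%), Igkv14-111 (5.07%), Iglv1 (4.44%), Igkv1-135 (4.27%), Igkv1-88 (3.32%), Igkv4-55 (3.24%), Igkv1-110 (3.21%) and Igkv6-23 (3.18%). The first 3, and the last 4, differed from one another by less than the median SD of their shares within groups. Dividing counts by exon length kept the first 7 in place and reordered the last 3.

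**Figure D2:**
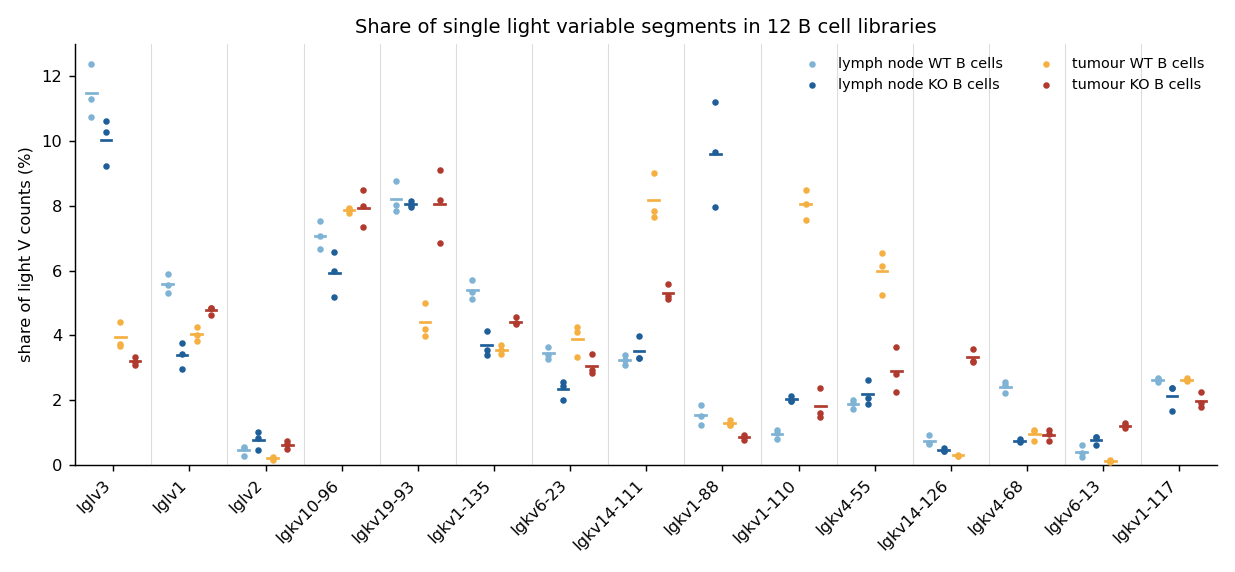
Dots are the shares of light V counts (%) of 15 segments in the 12 B cell libraries, coloured by group, and short bars are group means (n = 3). Igkv1-88 in lymph node KO (7.97 to 11.2%), Igkv1-110 in tumour WT (7.55 to 8.50%) and Igkv14-126 in tumour KO (3.18 to 3.58%) stand clear of the other groups in all 3 libraries.

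Libraries of a group had nearly the same profile, and each group had its own. The share of the profile that differs between 2 libraries (the Bray-Curtis distance of the shares) was 4.72 to 10.1% within groups, with a median of 8.81% over 12 pairs. Between genotypes of the same tissue it was 18.6 to 22.6% over 18 pairs, and between tissues of the same genotype 22.4 to 29.8%. The distances within groups thus did not overlap those between groups. A chi-square of the member counts, divided by its degrees of freedom and near 1 for independent counts, was 2.47 to 5.22 within groups and 11.6 to 46.4 between them. If the libraries of a group came from the same animals or pool, those animals and the genotype or tissue cannot be told apart.

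**Figure D3:**
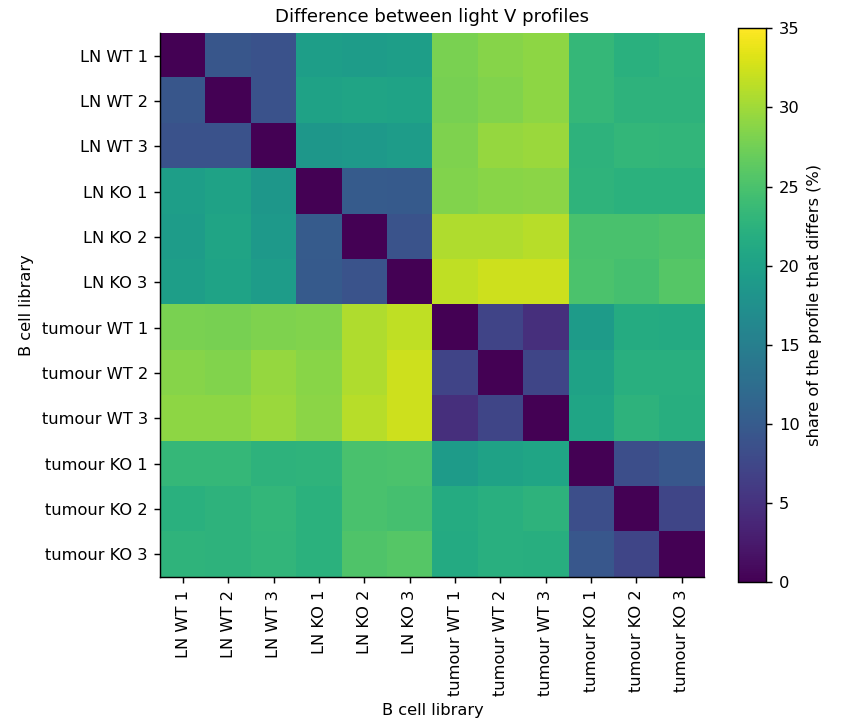
Each cell of the heat map is the share of the light V profile that differs between 2 B cell libraries (%), ordered by group. The 4 blocks of 3 libraries on the diagonal hold the lowest values, at most 10.1%, and the highest, 32.4%, lies between lymph node KO and tumour WT.

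In the lymph node, segments differed between the genotype labels in both directions. Of 77 tested members, 13 (16.9%) were higher in KO, against 11% of all genes, and 9 (11.7%) were lower, against 10.1%. The count of lower members was thus near the share over all genes. DESeq2 called 8 higher and 6 lower. On the share scale 10 members (13%) were higher, against 5.86% of all genes, and 9 (11.7%) lower, against 17.9%. Igkv1-88, towards the middle of the kappa locus, had the largest difference in level among members averaging 5 CPM or more. It took 7.97, 9.66 and 11.2% of light V counts in KO and 1.83, 1.23 and 1.52% in WT, a log2 difference in level of 2.76 ± 0.13 (edgeR adjusted p = 1.38e-15) and in share of 2.65 ± 0.13 (1.48e-21). The lymph node KO libraries lay several-fold above the lymph node WT libraries. The tumour WT libraries (1.23 to 1.39%) lay within the lymph node WT range, and the tumour KO libraries (0.758 to 0.928%) lay below both. Within the tumour the level of Igkv1-88 was thus lower in KO, by a log2 difference of -1.23 to -0.98 with 1 library left out in turn.

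Among the other common segments, Igkv1-110 was higher in KO, at 1.99, 1.97 and 2.11% against 1.09, 0.997 and 0.809% (log2 level difference 1.18 ± 0.18, adjusted p = 1.1e-05). Igkv14-100 was higher at 1.07, 1.33 and 1.13% against 0.887, 0.491 and 0.388% (1.10 ± 0.26, 0.0027). Igkv4-68 was lower in KO, at 0.799, 0.695 and 0.746% against 2.48, 2.55 and 2.22% (-1.57 ± 0.18, 8.2e-08). These groups did not overlap in share, and Igkv4-68 in both tumour groups lay nearer the KO values. Igkv6-32 was lower in KO as well, at 0.906, 0.822 and 1.22% against 2.23, 2.00 and 1.75% (-0.91 ± 0.19, 0.000643). Rarer segments, chosen here after their values were seen, differed by as much as Igkv1-88 or nearly so. Igkv13-85 was lower in KO, at 0.266, 0.199 and 0.138% against 1.36, 1.41 and 1.13% (-2.56 ± 0.29 in level, edgeR adjusted p = 7.95e-08, and -2.68 ± 0.29 in share, 4.51e-10). Igkv4-70 was lower at 0.208 ± 0.131% against 1.32 ± 0.195% (-2.52 ± 0.32 in level, 7.16e-07). Igkv1-133 and Igkv2-112 were higher, by 2.28 ± 0.48 (0.000666) and 2.21 ± 0.32 (4.6e-06) in level. The calls of Igkv5-48 and Igkv3-4, which were higher, and of Igkv3-12 and Igkv6-23, which were lower, each rested on single libraries. Igkv5-48 lost its call without lymph node WT replicate 3 (log2 0.67, adjusted p = 0.0605), and Igkv3-4 without KO replicate 1 or WT replicate 1 (0.51 and 0.58, 0.0742 and 0.0626). Igkv6-23 lost its call without KO replicate 2 or WT replicate 2 (-0.35 and -0.41, 0.0928 and 0.0638), and Igkv3-12 without either replicate 2 or either replicate 3 (adjusted p 0.0689 to 0.141, log2 -0.54 to -0.70).

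In the tumour more members were lower than higher in level in KO, and the mix differed as well. Of 84 tested members, 8 were higher in KO, against 21.3% of all genes, and 32 were lower, against 18.8%. The light V total was lower in KO as well, and on the share scale 19 were higher (43.8% of all genes) and 12 lower (5.04%). Igkc was lower in level by -0.42 ± 0.08 (edgeR adjusted p = 0.0011), and relative to the light V total its difference was 0.083 ± 0.11 (0.55).

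Igkv1-110 and its neighbour Igkv14-111 marked the tumour WT libraries. Igkv1-110 took 7.55, 8.50 and 8.07% there against 2.37, 1.59 and 1.49% in tumour KO, a log2 difference of -2.63 ± 0.14 in level (edgeR adjusted p = 4.03e-09) and -2.13 ± 0.16 in share (7.86e-10). Igkv1-117, its 97.2% identical relative printed above and named after its values were seen, took 2.61, 2.69 and 2.58% in tumour WT and 2.26, 1.77 and 1.92% in tumour KO. Its share difference was -0.40 ± 0.16 (0.0388). Igkv14-111 took 7.85, 9.0 and 7.67% in tumour WT and 5.22, 5.13 and 5.59% in tumour KO (log2 share difference -0.62 ± 0.13, 0.000401). Igkv4-55 took 6.14, 5.26 and 6.55% against 3.65, 2.24 and 2.80% (-1.04 ± 0.16 in share, 1.56e-05). Igkv4-57, at 1.19 to 1.40% against 0.548 to 0.800%, was lower in KO on both scales (-1.44 ± 0.19 in level, 3.16e-05), as was Igkv4-91 (-1.36 ± 0.26, 0.000881). Igkv4-50 was lower in level (-1.30 ± 0.32, 0.00529), and its share difference was -0.81 ± 0.33 with its share ranges overlapping.

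Igkv14-126 marked the tumour KO libraries. It took 3.18, 3.58 and 3.22% there and 0.276, 0.283 and 0.313% in tumour WT, a log2 difference of 3.0 ± 0.16 in level (edgeR adjusted p = 4.19e-09) and 3.51 ± 0.19 in share (2.33e-12). Its relative Igkv14-111 moved the other way in the same libraries. Igkv6-13 took 1.29, 1.22 and 1.13% against 0.0829, 0.117 and 0.147% (2.88 ± 0.24 in level, 5.74e-07). Igkv5-48 took 1.83, 1.92 and 1.54% against 0.419, 0.466 and 0.645% (1.27 ± 0.20, 0.000151), and Igkv16-104 took 2.31, 1.56 and 1.47% against 0.673, 0.715 and 0.625% (0.91 ± 0.18, 0.00123). The WT and KO libraries did not overlap in any of these. Igkv19-93 took 6.86, 8.19 and 9.10% in KO against 5.01, 4.21 and 3.99% in WT, higher in share by 0.87 ± 0.14 (2.84e-05), while its level difference of 0.36 ± 0.14 did not pass (0.0538).

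The tissue comparisons share the groups just described. On the share scale 18 members were higher in the tumour in WT (1.89% of all genes) and 26 lower (92.7%), and in KO 25 were higher (2.66%) and 14 lower (86.8%). Igkv1-99, a minor segment, was higher in both tumours, with a level of 4.60 ± 0.34 (edgeR adjusted p = 5.24e-09) and 4.43 ± 0.27 (8.39e-08) above lymph node on the log2 scale in WT and KO. It took 0.0306 to 0.187% of light V counts in lymph node libraries, 0.616 to 0.749% in tumour WT and 1.10 to 1.34% in tumour KO. Igkv3-1 was also higher in both tumours, at 1.06 to 1.53% against 0.304 to 0.679% in the lymph nodes (level difference 3.76 ± 0.19 in WT, 2.43e-11, and 2.64 ± 0.27 in KO, 8.72e-06). In KO, Igkv6-14 took 0.651 to 0.926% in the tumour against 0.0933 to 0.284% in the lymph node. Igkv17-121 took 1.24 to 1.95% against 0.5955 to 0.884% there. Their levels were higher in KO tumours by 3.54 ± 0.34 (4.38e-06) and 2.31 ± 0.22 (4.38e-06).

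The segments that marked a group also differed between tissues. Igkv1-110 was higher in WT tumours by 4.99 ± 0.11 in level (edgeR adjusted p = 1.13e-16) and 3.06 ± 0.16 in share (1.78e-14). In KO its level was higher by 1.15 ± 0.17 (0.000197) and its share differed by -0.15 ± 0.18 (0.438). Igkv4-55 and Igkv4-57 were higher in WT tumours by 3.63 ± 0.14 (5.27e-13) and 3.89 ± 0.21 (5.71e-11) in level. Igkv14-126 was higher in KO tumours by 4.12 ± 0.15 (5.64e-10), and Igkv1-88 was lower there by -2.18 ± 0.14 in level (9.11e-08) and -3.49 ± 0.14 in share (2.24e-10). In the fit of all 12 libraries the difference between KO and WT itself differed between tissues for 6 members upward (12.4% of all genes) and 23 downward (8.55%), and on the share scale for 16 (42.3%) and 10 (1.45%). The members with the largest such differences are listed among the results for a closer look.

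Igkv10-96 and Igkv8-30 were called different in share in at most 1 of the 4 comparisons. Igkv10-96 ranged over 5.19 to 8.50% and was lowest in lymph node KO (5.92 ± 0.699%) and highest in tumour KO (7.94 ± 0.577%; SD, n = 3). Its share was called different in 1 of the 4 comparisons, KO tumour against KO lymph node, by 0.42 ± 0.10 (edgeR adjusted p = 0.00159), and its level was lower in tumour KO than tumour WT (-0.49 ± 0.09, 0.000943). Igkv8-30, named after its values were seen, ranged over 2.15 to 3.25% and was called in none of the 4. Igkv1-135, in contrast, was called in 3 of the 4, and its lymph node WT shares (5.13 to 5.72%) lay above those of all other libraries. Of the 73 members tested in all 4 pairwise comparisons, which share libraries, 15 were called on the share scale in none, 16 in 1, 27 in 2, 14 in 3 and 1, Igkv6-13, in all 4. A miss does not show that a share was equal.

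The kappa segments lie on mouse chromosome 6 (GRCm39), from 19 kb to 3167 kb upstream of Igkj1, the first J segment, at chr6:70699546-70699583 on the plus strand. Igkv1-88 lies at chr6:68839249-68840015 on the minus strand, Igkv19-93 at chr6:68713281-68713764 and Igkv10-96 at chr6:68608947-68609426, both on the minus strand, and Igkv1-110 at chr6:68247469-68248251 on the plus strand. The 3 lambda members lie on chromosome 16, Iglv3 at chr16:19059957-19060440 and Iglv1 at chr16:18903767-18904250, all on the minus strand.

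Usage along the kappa locus was uneven in all groups. The 27 most distal members, 1954 to 3167 kb from Igkj1, took 46.8 ± 1.16% of kappa counts in lymph node WT, 43.7 ± 0.50% in lymph node KO, 49.7 ± 1.31% in tumour WT and 50.3 ± 0.908% in tumour KO. The 27 in the middle took 23.0 ± 0.395, 27.1 ± 2.26, 20.1 ± 0.943 and 19.2 ± 0.806% in the same order, and Igkv1-88 is among them. The 28 most proximal members took 29.3 to 30.5% in all 4 groups, which overlapped. Segments on the plus strand, the orientation of the J segments, join them by deletion and those on the minus strand by inversion. Plus-strand segments took 38.5 ± 0.681% in lymph node WT, 38.6 ± 1.43% in lymph node KO, 46.8 ± 1.78% in tumour WT and 45.8 ± 0.283% in tumour KO (SD, n = 3). The tumour libraries (45.3 to 48.8%) lay above the lymph node libraries (37.5 to 40.2%). Igkv14-111 and Igkv1-110, both plus-strand, are part of that difference in tumour WT.

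**Figure D4:**
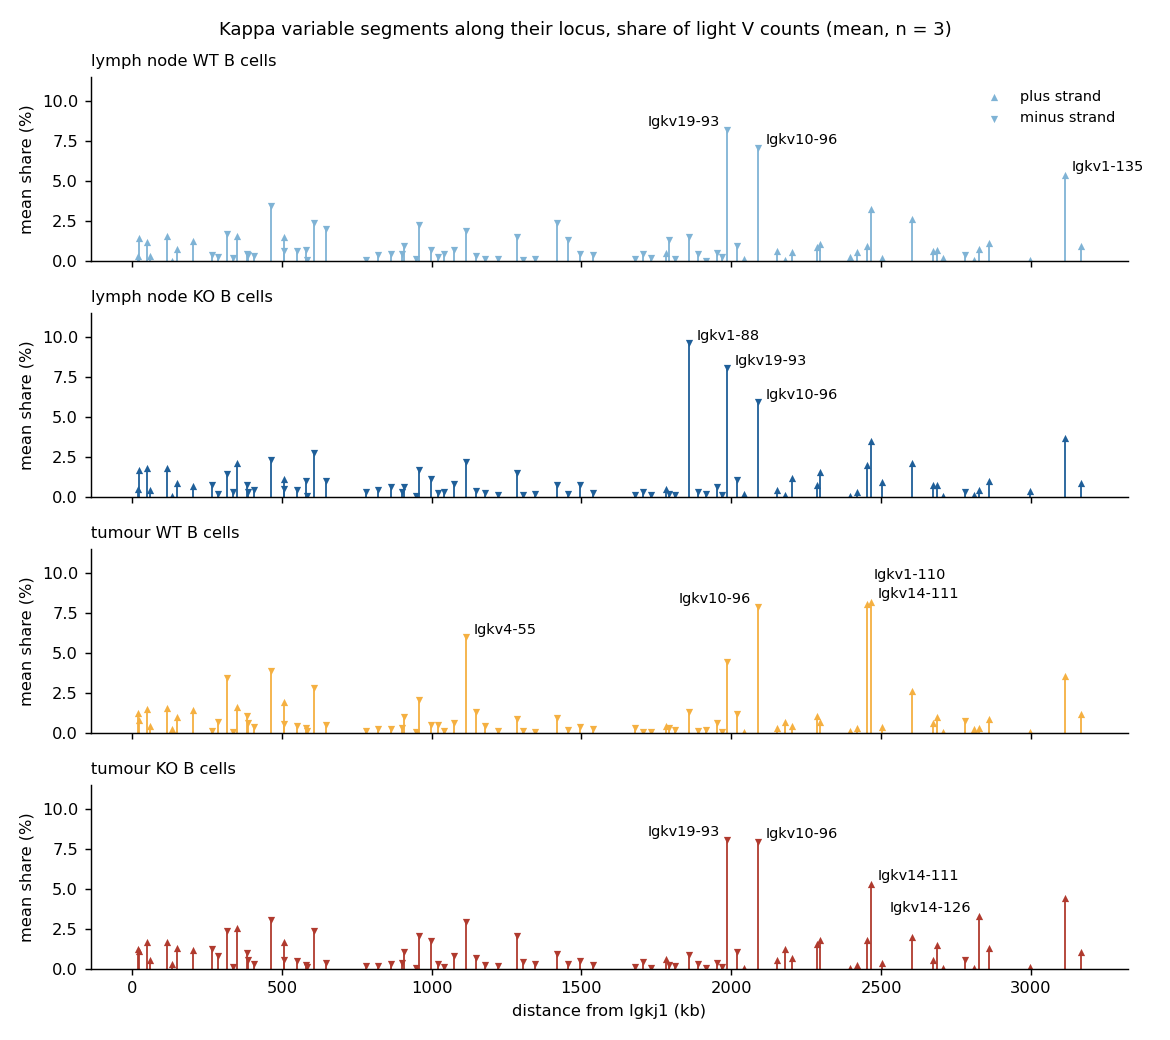
Each mark is a kappa segment at its distance from Igkj1 (kb, horizontal), with its mean share of light V counts (%, n = 3) in 1 group per panel and its strand by the direction of the triangle. The largest share in each panel lies at least 1860 kb from Igkj1, and Igkv1-88, Igkv1-110 and Igkv14-126 reach their highest mean share in lymph node KO, tumour WT and tumour KO.

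By family, the number before the hyphen, the Igkv1 family (7 members) took 10.4 to 11.6% of light V counts in lymph node WT, 16.5 to 19.7% in lymph node KO, 15.9 to 16.7% in tumour WT and 10.1 to 11.2% in tumour KO. Its largest member was Igkv1-88 in lymph node KO and Igkv1-110 in tumour WT. The Igkv14 family (3 members) took 4.39 to 5.58% in the lymph nodes and 8.38 to 9.85% in the tumours, with Igkv14-111 its largest member in both. The 21 members of Igkv4 together took 10.9 to 12.9% in lymph node WT, 9.19 to 10.7% in lymph node KO, 12.6 to 13.9% in tumour WT and 10.5 to 12.2% in tumour KO. The J segments differed too, though they are short and Igkj3 was low, with group means of 6.18 to 16.8 CPM. Igkj1 took 35.9 ± 0.421% of kappa J counts in lymph node KO, 29.7 ± 0.333% in tumour KO, 26.2 ± 0.902% in lymph node WT and 25.5 ± 1.66% in tumour WT (SD, n = 3), so that both KO groups lay above both WT groups. Igkj1 was higher in level in lymph node KO by 0.24 ± 0.07 (edgeR adjusted p = 0.00915), while Igkj2, Igkj3 and Igkj5 were lower. In the tumour all 5 J segments were lower in KO in level, Igkj1 least, by -0.27 ± 0.10 (0.046).

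Genes of light chain rearrangement, of the surrogate light chain and of light chain transcription were followed in separate lists. The list of rearrangement and surrogate light chain genes (Rag1, Rag2, Dntt, Vpreb3 and Igll1) summed to 1.10 to 4.67 CPM in every B cell library. Igll1 was at 0 in 3 groups, and few passed the filter. Vpreb3, which does not itself rearrange segments, had the highest mean in each group (1.32 to 3.10 CPM).

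The next list held 12 factors that act on immunoglobulin promoters and enhancers. Of these, 5 were higher and 5 lower in KO than in WT tumours, against 21.3 and 18.8% of all genes. In the lymph node 4 were higher and 2 lower, against 11 and 10.1%. Pou2af1, the B cell coactivator of octamer-binding proteins, was lower in KO in both, at 90 ± 9.34 against 207.7 ± 7.08 CPM in the tumour (log2 -1.21 ± 0.08, edgeR adjusted p = 9.14e-08) and 107.8 ± 6.15 against 144.7 ± 4.91 in the lymph node (-0.42 ± 0.06, 4.04e-06). Irf4, which acts at the kappa enhancer and is also needed in plasma cells and in Tregs, was higher in KO, at 502.7 ± 28.6 against 98.8 ± 5.93 CPM in the tumour (2.35 ± 0.08, 5.93e-11) and 213 ± 1.39 against 152.4 ± 2.96 in the lymph node (0.48 ± 0.05, 2.76e-08; SD, n = 3). Of 12 tested constant and joining genes, 7 were lower and 0 higher in tumour KO, against 18.8 and 21.3% of all genes. In WT tumour against lymph node 10 were higher and 0 lower, against 15.7 and 14.3%.

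Light V RNA was also counted in the sorted Treg libraries, and its mix was closest to that of the B cells of the same group. The members summed to 48.1 ± 2.95 CPM in lymph node WT Tregs, 58.4 ± 2.16 in lymph node KO, 26.1 ± 3.07 in tumour WT and 438.5 ± 8.89 in tumour KO Tregs (SD, n = 3), the last from 4738 to 4988 counts per library and the others from 244 to 974. Tregs do not rearrange these loci. All 12 Treg libraries lay closest to the B cell group of their own tissue and genotype. The profile that differed was 13.8 to 16.4% in tumour KO and 24.1 to 27.1% in lymph node KO, but 50.1 to 56.1% in lymph node WT and 51.1 to 56.4% in tumour WT, where the counts were few. In lymph node WT the margin was narrow, since lymph node WT Treg replicate 1 lay 50.1% from lymph node WT B cells and 51.7% from tumour KO B cells.

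Some segments that marked a B cell group were also highest in its Tregs. Igkv1-88 took 10.7, 8.0 and 10.4% in lymph node KO Tregs and at most 0.591% in any other Treg library. Igkv1-110 took 6.90, 7.62 and 9.84% in tumour WT Tregs, above the other Treg libraries (at most 2.09%). Igkv14-126 took 2.36, 2.60 and 2.41% in tumour KO Tregs and had 0 counts in the other 9 Treg libraries, which allows up to 0.308 to 1.23% per library. Other segments went apart from the B cells. Igkv14-111, which also marked tumour WT B cells, had 0, 1 and 0 counts in tumour WT Tregs. Igkv6-13, at 1.13 to 1.29% in tumour KO B cells, had 0 counts in every tumour KO Treg library. Igkv6-17 led lymph node WT Tregs at 14.1 ± 3.54% and Igkv8-30 led tumour WT Tregs at 18.6 ± 2.47%, both named after their values were seen, while Igkv19-93, at 7.83 to 8.78% in lymph node WT B cells, took at most 1.13% in the matching Tregs. Whether these reads come from B cells or plasma cells in the sort or from free RNA was not tested.

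**Figure D5:**
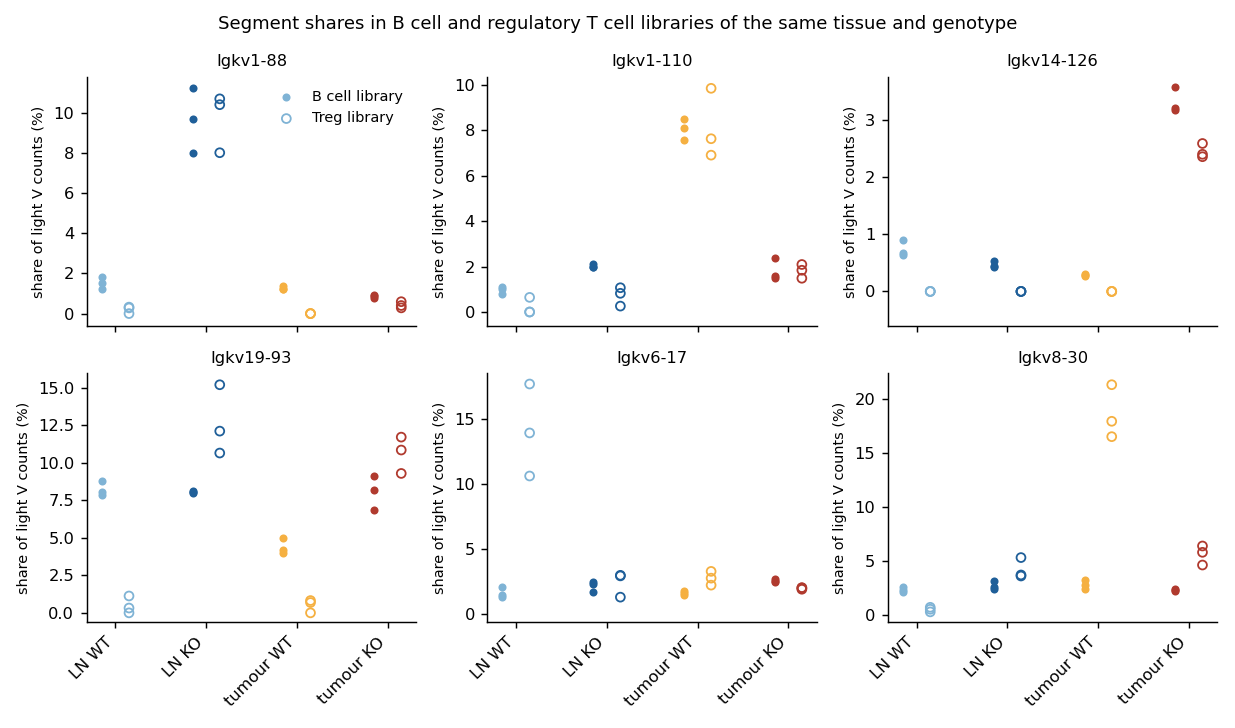
Filled dots are B cell libraries and open circles Treg libraries of the same tissue and genotype, for the share of light V counts (%) of 6 segments. Igkv1-88, Igkv1-110 and Igkv14-126 are high in the same group in both cell types, while Igkv6-17 and Igkv8-30 are high in Tregs of a WT group alone, at 10.6 to 17.7% and 16.5 to 21.3%.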

How the data were processed

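The deposited table holds raw, unnormalized counts of 56791 genes in 24 libraries, which were used unchanged. TRIzol extraction and a stranded mRNA kit are stated per the labels' protocols. The submitters' processing notes list featureCounts (a read counter), STAR 2.5.3a (an aligner) and fastp 0.23.4 (a read trimmer), along with the genome builds GRCm39 and GRCh38. The table's coordinates are mouse and are given as GRCm39. Neither the strand setting of the counting nor its handling of reads shared by several genes is given in the sources used here. Each column name fitted the title of 1 sample, with 0 unmatched.

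Members, gene lists and tests were chosen with earlier results of these data known. Pairwise comparisons were fitted on 6 libraries each, and the interaction of genotype with tissue on 12, with edgeR 4.0.16 in R 4.3.3 (TMM scaling, the package's filter on low counts, two-sided quasi-likelihood F test, Benjamini-Hochberg adjustment over all genes tested). A gene was called at an adjusted p under 0.05. Log2 differences carry the standard error of the fit, and ± elsewhere is the SD. No replicate block was fitted, as the meaning of the replicate numbers is not stated in the labels. Shares, effective numbers and distances were computed in Python 3.11.15 and get no test. Named genes are the 10 largest by mean share, the lambda members, any member that led a library, Igkc, Iglc1 to Iglc3, Jchain, and for each comparison and the interaction the 5 largest called changes in each direction among genes averaging 5 CPM or more and, in the comparisons, without overlap. Tested on simulated data, the tumour KO comparison recovered 79.4% of 97 changes of 1 on the log2 scale and 100.0% of 98 changes of 2. The interaction recovered 59.0% of 100 changes of 1 and 92.7% of 96 changes of 2, with 5.73% of its calls false. The simulated counts were independent with a common dispersion, so they do not cover the excess of even counts. Alternatives were other scalings, DESeq2 1.42.0, no filter, the replicate block, left-out libraries, other count limits, thinning and another diversity index. Counts divided by exon length were added after seeing the data. Some marker and pathway genes are not reported here.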

Additional observations from a re-analysis of the deposited data

Results flagged for a closer look

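The difference between KO and WT itself differed between tumour and lymph node B cells for 8 members named here, by the interaction term of the edgeR quasi-likelihood fit over 12 libraries with Benjamini-Hochberg adjustment over all genes. It was higher in the tumour by 3.53 ± 0.26 on the log2 scale for Igkv14-126 (adjusted p = 3.53e-09), by 1.84 ± 0.41 for Igkv6-13 (0.00267) and by 1.02 ± 0.27 for Igkv4-68 (0.00961). It was lower in the tumour by -3.88 ± 0.23 for Igkv1-88 (1.31e-10), by -3.82 ± 0.21 for Igkv1-110 (3.42e-11), by -2.87 ± 0.47 for Igkv2-112 (0.000123), by -1.90 ± 0.24 for Igkv4-55 (6.65e-06) and by -1.84 ± 0.42 for Igkv4-57 (0.00336). The same sign and call held for these 8 with libraries scaled to the light V total. For Igkv1-110, Igkv14-126 and Igkv1-88 the 3 libraries of a single group stood apart from the other 9. Igkv2-112 took 0.839, 0.907 and 1.01% of light V counts in lymph node KO and 0.123 to 0.471% elsewhere.

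Light V counts appeared in the sorted Treg libraries, cells that should hold none. Their summed mean level was 48.1 CPM in lymph node WT, 58.4 in lymph node KO, 26.1 in tumour WT and 438.5 in tumour KO Tregs, against 563.5 to 2072 in the B cell groups. Tumour KO Tregs also held Jchain at 147.3 ± 4.90 CPM and the B cell marker Ms4a1 at 5.11 ± 0.798 CPM, where tumour WT Tregs held 12.3 ± 3.35 and 0.126 ± 0.217 (SD, n = 3). The source of these counts was not tested.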

How the results depend on the processing

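With libraries scaled to the light V total, which tests shares, the members called were 19 higher and 12 lower (against 8 and 32) in tumour KO against WT, 18 and 26 (against 67 and 0) in WT tumour against lymph node, 25 and 14 (against 60 and 2) in KO tumour against lymph node, and 16 and 10 (against 6 and 23) in the interaction, while the calls over all genes were 13026, 12143 and 6446 in the last 3 (against 4141, 4196 and 3086). This follows from the scaling, since the light V total differs between the groups. Under that scaling these named log2 values reversed. In tumour KO against WT they became 0.083 for Igkc, 0.012 for Igkv10-96, 0.067 for Iglc1, 0.42 for Iglc2 and 0.39 for Iglc3. In WT tumour against lymph node they became -0.19 for Igkc, -0.60 for Igkv1-135, -0.24 for Igkv1-88, -0.90 for Igkv19-93, -0.56 for Iglc1, -1.5 for Iglc2, -1.84 for Iglc3, -0.46 for Iglv1, -1.15 for Iglv2 and -1.55 for Iglv3. In KO tumour against lymph node they became -0.15 for Igkv1-110, -0.0017 for Igkv19-93, -1.13 for Iglc2 and -0.32 for Iglv2, and in the interaction 0.28 for Igkc and 0.57 for Iglc1. DESeq2 called 8 members higher in lymph node KO (against 13), and the cause was not tested. In WT tumour against lymph node 1 member was lower without a filter on low counts or with the replicate block (against 0).

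With members of at least 1000 counts, in the order lymph node WT, lymph node KO, tumour WT and tumour KO, the lambda share was 20.5, 16.2, 9.17 and 9.38%, the effective number 24.9, 24.9, 26.7 and 29.7, and the leading share 13.8, 12.5, 9.58 and 10.1%, and the summed level 468.1, 507.9 and 1244 CPM in lymph node WT, lymph node KO and tumour KO. The effective number was 43.6, 44.1, 42.3 and 48.1 with no count limit and 24.7, 24.8, 26.5 and 31.6 as the inverse Simpson index. Tumour KO had the highest effective number under each of these. Per exon length, added after seeing the data, the lambda share was 17.0, 7.91 and 8.27% in lymph node WT, tumour WT and tumour KO, and the effective number 41.3 in tumour WT. Without TMM the summed level was 588.8 in lymph node KO and 1319 CPM in tumour KO.

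Leaving out 1 library at a time gave 7 to 9 members higher and 24 to 35 lower in tumour KO, 9 to 11 and 6 to 9 in lymph node KO, 61 to 70 and 0 in WT tumour against lymph node, 50 to 58 and 1 to 3 in KO tumour against lymph node, and 6 to 7 and 16 to 25 in the interaction. Without tumour KO replicate 1 and tumour WT replicate 2 together, tumour KO had 8 higher and 37 lower. Besides the calls named beside their results, Iglv2 lost its calls in lymph node KO against WT (adjusted p 0.0754 to 0.225) without 4 libraries, in turn, and in KO tumour against lymph node (0.0501 to 0.0832) without 4, and Jchain its call in lymph node KO against WT without 3 (0.0758 to 0.104). Leaving out libraries was run on the TMM scale alone. Same-numbered libraries did not deviate together (r -0.12 to 0.08, and 8 of 24 correlated best with their own number), and with the replicate block members called were 7 and 33, 12 and 9, 67 and 1, 58 and 2, and 6 and 24 in the same order of comparisons. The depth of 6180 to 21711 light V counts limits what can be said of segments under about 1% of counts.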
